A study of Homo sapiens with 8 samples.

Results

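The 9 genes described here encode P-TEFb, its regulators and partner elongation factors of RNA polymerase II. They are CDK9, CCNT1, CCNT2, HEXIM1, LARP7, AFF4, ELL, ELL2 and TCEA1, found by gene name among 38551 genes with counts. All 9 were matched and all 9 passed the filter on low counts. The set was chosen with the comparison of PR-957 and DMSO already known, and TCEA1 was taken in for its decrease. The values of these 9 genes in that comparison are therefore given as a description, without a test.

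RNA-sequencing counts came from MOLM-13, a human line from acute myeloid leukemia with a KMT2A::MLLT3 fusion. Cells of 4 libraries had received DMSO, the diluent, and cells of the other 4 had received 100 nM PR-957 (ONX-0914), an inhibitor of the immunoproteasome subunit PSMB8, for 72 h in both groups. All libraries came from this 1 line, and nothing in the labels says that replicates were separate cultures, so p-values measure the spread between these libraries, which may be technical. Totals ran from 16675036 to 23111223 counts per library. The myeloid markers CD33, SPI1, MPO, CEBPA and PTPRC together gave 1115 to 1176 CPM in DMSO and 1375 to 1443 CPM in PR-957 libraries, where CPM are counts per 1000000 after scaling for library composition. They did not move together: MPO went from 175 to 506 CPM and SPI1 from 158 to 181 CPM, PTPRC went from 207 to 131 CPM, and CD33 and CEBPA were not called. Of 5 markers of other cells (CD3E, MS4A1, HBB, EPCAM and COL1A1), which summed to between 0.939 and 2.36 CPM, CD3E had 0 counts in every library. Mitochondrially encoded genes took 1.94 to 2.75% of counts in DMSO and 4.15 to 5.24% in PR-957 libraries, and the part of this shift in the results was not tested. In bulk RNA, a change in every cell and a change in the share of cells that express a gene cannot be told apart.

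The genes lie on 8 chromosomes of hg38 and differ in size. HEXIM1 (chromosome 17, 45148475 to 45152099, plus strand) consists of 1 exon of 3625 bases. CDK9 (chromosome 9, 127786034 to 127790792, plus strand) is almost as compact, with 7 merged exon blocks. CCNT1 (chromosome 12, 48688458 to 48716707, minus strand) and CCNT2 (chromosome 2, 134918810 to 134959342, plus strand) have 10 and 9. LARP7 is on chromosome 4 (112636964 to 112657592, plus strand) and ELL on chromosome 19 (18442663 to 18522070, minus strand). AFF4 (132875381 to 132963655) and ELL2 (95885098 to 95961962) both lie on the minus strand of chromosome 5. TCEA1 (chromosome 8, 53966556 to 54022448, minus strand) has 13. None of the 9 shares exon bases on its own strand with another of the 38551 genes that have counts. On the other strand only LARP7 is overlapped by such genes, over 8.39% of its exon bases by MIR302CHG and ZGRF1. Outside these genes, the noncoding HEXIM2-AS1 matches 520 bases of the HEXIM1 transcript at 100% identity. Another noncoding gene matches 476 bases of the ELL transcript at 100%. The part of either match in the levels was not tested. TCEA1 has a processed pseudogene, TCEA1P2, which matches 906 bases of its transcript at 99.7% identity, and ELL2P1 matches 1886 bases of ELL2 at 96.5%. Fragments that fit gene and copy equally well were not counted, so the levels of TCEA1 and ELL2 may be too low.

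RNA polymerase II pauses shortly after it starts transcription. P-TEFb, the kinase CDK9 bound to cyclin T1 or cyclin T2, phosphorylates the polymerase and the factors that hold it, and so lets it move on. Much of P-TEFb is kept inactive in the 7SK ribonucleoprotein, in which HEXIM1 inhibits the kinase and LARP7 protects the 7SK RNA. Active P-TEFb joins AFF4 and ELL or ELL2 in the super elongation complex, which KMT2A fusion proteins recruit to their target genes in leukemia. TCEA1 encodes TFIIS, which restarts polymerases that have slid backwards on the DNA.

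The bases before the start of HEXIM1 are shown because every PR-957 library lay above every DMSO library for this kinase inhibitor, and those of AFF4 because the groups overlapped for this scaffold. RefSeq promoters (GRCh38.p14) were matched for 7 of the 9 genes, not for ELL2 or TCEA1, and CCNT1 and LARP7 had a second entry. The 250 bases upstream were searched on both strands. The TATA core was TATAAA and the CCAAT box was searched as spelled in its name. The GC box was GGGCGG. The E-box was CACGTG. The cyclic AMP element was TGACGTCA. The element of C/EBP and ATF factors was TGATGNAA. A heat shock element of inverted units was searched too. Capitals mark the matches. The HEXIM1 stretch is chr17:45148225-45148474 on the plus strand and the AFF4 stretch is chr5:132963635-132963884 on the minus strand, both written 5′ to 3′ and ending at the base before the start of the RefSeq promoter entry. For HEXIM1 this is also the start in the count table, while the last bases of the AFF4 stretch lie inside AFF4 as the count table places it.
HEXIM1: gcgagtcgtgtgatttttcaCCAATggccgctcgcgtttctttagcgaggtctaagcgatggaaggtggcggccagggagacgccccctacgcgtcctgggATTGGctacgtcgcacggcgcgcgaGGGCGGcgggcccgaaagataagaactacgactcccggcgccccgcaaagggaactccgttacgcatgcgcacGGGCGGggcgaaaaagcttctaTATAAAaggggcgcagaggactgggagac
AFF4: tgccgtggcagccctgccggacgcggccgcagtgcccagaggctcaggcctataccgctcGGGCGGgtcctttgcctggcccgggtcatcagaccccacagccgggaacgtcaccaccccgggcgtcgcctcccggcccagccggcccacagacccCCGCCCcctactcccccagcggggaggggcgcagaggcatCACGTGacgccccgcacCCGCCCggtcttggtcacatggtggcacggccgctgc
HEXIM1 held a TATA core that begins 29 bases before its start, 2 CCAAT boxes and 2 GC boxes, and it was the only one of the 7 with a TATA core, which 10.7% of 35116 promoters hold. AFF4 held 3 GC boxes and 1 E-box. An E-box stood in 2 of the 7 genes, AFF4 and CCNT1, against 6.34% of all promoters. A GC box stood in at least 1 entry of all 7, against 42.6% of all promoters, and a CCAAT box in 4 (CCNT1, CCNT2, HEXIM1 and LARP7), against 32.0%. The most upstream entries of the 7 genes held 59.2 to 82.0% G and C, against a median of 58.0% over all promoters. The part of this base content in the GC box matches was not tested. LARP7 alone held the cyclic AMP element, found in 1.65% of promoters. The C/EBP-ATF and heat shock elements had no match in the 7 stretches, and 3.14% and 0.441% of all promoters hold them. These matches are letters in a window and do not show binding.

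In DMSO cells the 9 genes differed widely in level per length. TCEA1 had the highest level of the 9, 154.5 ± 8.23 RPKM (SD, n = 4), where RPKM is CPM per kilobase of exon, and stood above 97.4% of the 13179 genes tested. LARP7 followed at 33.6 ± 2.34 RPKM, then CDK9 at 25.3 ± 0.479 RPKM and HEXIM1 at 15.8 ± 1.01 RPKM. CDK9 transcripts were thus measured above those of its inhibitor HEXIM1, and these counts do not measure protein. ELL had 7.47 ± 0.589 RPKM, CCNT1 6.16 ± 0.203 RPKM, CCNT2 4.55 ± 0.0762 RPKM and AFF4 2.50 ± 0.285 RPKM. ELL2 was last, at 0.206 ± 0.0607 RPKM, in the lowest 5.60% of tested genes. No neighbours in this order overlapped over the 4 DMSO libraries. The exon length joins all isoforms, so a gene with long alternative exons, such as CCNT2 with 10515 bases, can be placed too low.

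**Figure D1:**
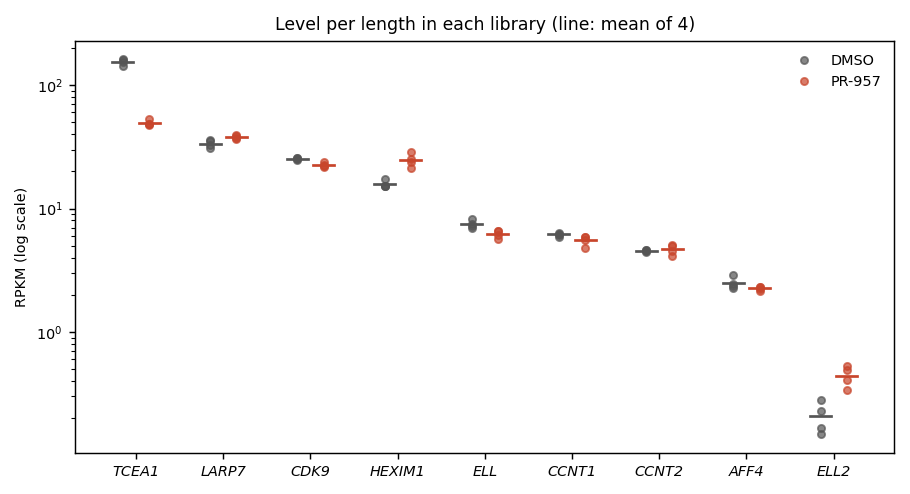
Level of the 9 genes per kilobase of exon (RPKM, log scale) in 4 DMSO libraries (grey) and 4 PR-957 libraries (red), with 1 point per library and a line at the mean. TCEA1 is first in both groups but moves from 154.5 to 49.2 RPKM, and HEXIM1 moves from below CDK9 in DMSO to overlap with it.

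Under PR-957 the order changed in its upper part. TCEA1 remained first but at 49.2 ± 2.37 RPKM, close above LARP7 at 37.8 ± 1.37 RPKM. HEXIM1, at 24.7 ± 3.16 RPKM, came next, and its libraries (21.2 to 28.8 RPKM) overlapped those of CDK9 (21.8 to 23.6 RPKM). ELL, CCNT1 and CCNT2 also formed a chain of overlapping neighbours, at 6.24, 5.54 and 4.67 RPKM. AFF4 and ELL2 stayed last without overlap, at 2.26 and 0.440 RPKM. All levels in this paragraph are per length.

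In the fit across all genes, PR-957 and DMSO differed at an adjusted p under 0.05 for 46.6% of tested genes (edgeR quasi-likelihood test), 23.1% higher and 23.5% lower, and the 2 groups did not overlap for 42.5%. Of the 9 genes, 3 were past this threshold and lower (TCEA1, ELL and CDK9), 3 were past it and higher (ELL2, HEXIM1 and LARP7), and CCNT1, CCNT2 and AFF4 were not past it. The groups did not overlap for 6 of the 9. The median log2 fold change of the 9 was -0.15, against 0.00 over all tested genes. Nothing is read from these counts, since the set was chosen on this contrast. With library totals in place of composition scaling, 4066 of all genes were called higher and 2353 lower, against 3045 and 3098, and CDK9 was no longer past the threshold.

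Transcripts of the kinase and its cyclins differed little. CDK9 had 63.4, 61.0, 63.7 and 62.9 CPM in DMSO replicates 1 to 4 and 58.7, 55.4, 55.6 and 54.2 CPM in the PR-957 replicates. All 4 PR-957 libraries lay below all 4 DMSO libraries, by a small step relative to the level. The log2 fold change was -0.16 (SE 0.06). It was -0.12 in replicates 1 and 2, -0.21 in replicates 3 and 4 and -0.09 with library totals alone, each short of the threshold, as was -0.16 without PR-957 replicate 3.

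CCNT1, the cyclin T1 partner of CDK9, had 40.5, 42.0, 43.7 and 42.9 CPM in DMSO and 32.9, 40.6, 40.5 and 38.0 CPM in PR-957 libraries. PR-957 replicate 1 was the lowest, and replicates 2 and 3 only just exceeded the lowest DMSO library. CCNT1 differed by a log2 fold change of -0.15 (SE 0.07), and -0.10 without PR-957 replicate 1. With the replicate number as a block it was -0.16 and past the threshold. CCNT2, the alternative cyclin, had 48.4, 48.7, 47.0 and 47.5 CPM in DMSO and 43.6, 47.9, 52.2 and 52.9 CPM in PR-957 libraries. The DMSO libraries were tightly grouped, while PR-957 replicates lay on both sides of them, 1 and 2 below or within and 3 and 4 above. CCNT2 differed by 0.04 on the log2 scale (SE 0.07). Replicates 1 and 2 alone gave -0.09, and replicates 3 and 4 gave 0.15. Without PR-957 replicate 4 the value was -0.00085. The ratio of CCNT1 to CCNT2 per length was 1.35 ± 0.0641 in DMSO and 1.19 ± 0.0826 in PR-957 libraries, and the groups overlapped.

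Transcripts of the kinase inhibitor showed the larger difference. HEXIM1 had 55.2, 55.6, 55.5 and 62.7 CPM in DMSO replicates 1 to 4 and 86.3, 76.8, 90.6 and 104 CPM in the PR-957 replicates. The groups did not overlap, and replicate 4 was the highest in both. This gave a log2 fold change of 0.64 (SE 0.08), or 1.56-fold, and without PR-957 replicate 4 it was 0.56. LARP7, the 7SK-binding protein, had 135, 125, 136 and 118 CPM in DMSO and 151, 139, 147 and 142 CPM in PR-957 libraries. The PR-957 libraries lay above the DMSO libraries, but PR-957 replicate 2 exceeded DMSO replicate 3 by little. For LARP7 the log2 fold change was 0.17 (SE 0.06). The call for LARP7 was lost without DMSO replicate 2, where the log2 fold change was 0.16, and without PR-957 replicate 1 or 3, where it was 0.15 and 0.16. It was lost as well in replicates 1 and 2 alone (0.16) and in replicates 3 and 4 alone (0.18).

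Set against CDK9 transcripts in the same library, HEXIM1 and LARP7 transcripts stood higher under PR-957. The ratio of HEXIM1 to CDK9 per length was 0.596, 0.624, 0.597 and 0.684 in DMSO and 1.01, 0.950, 1.12 and 1.32 in PR-957 libraries. HEXIM1 transcripts were thus fewer than CDK9 transcripts in every DMSO library and near or above them under PR-957. The ratio of LARP7 to CDK9 was 1.33 ± 0.0817 in DMSO and 1.68 ± 0.0387 in PR-957 libraries, without overlap. These ratios rest on the same contrast and are a description too.

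**Figure D2:**
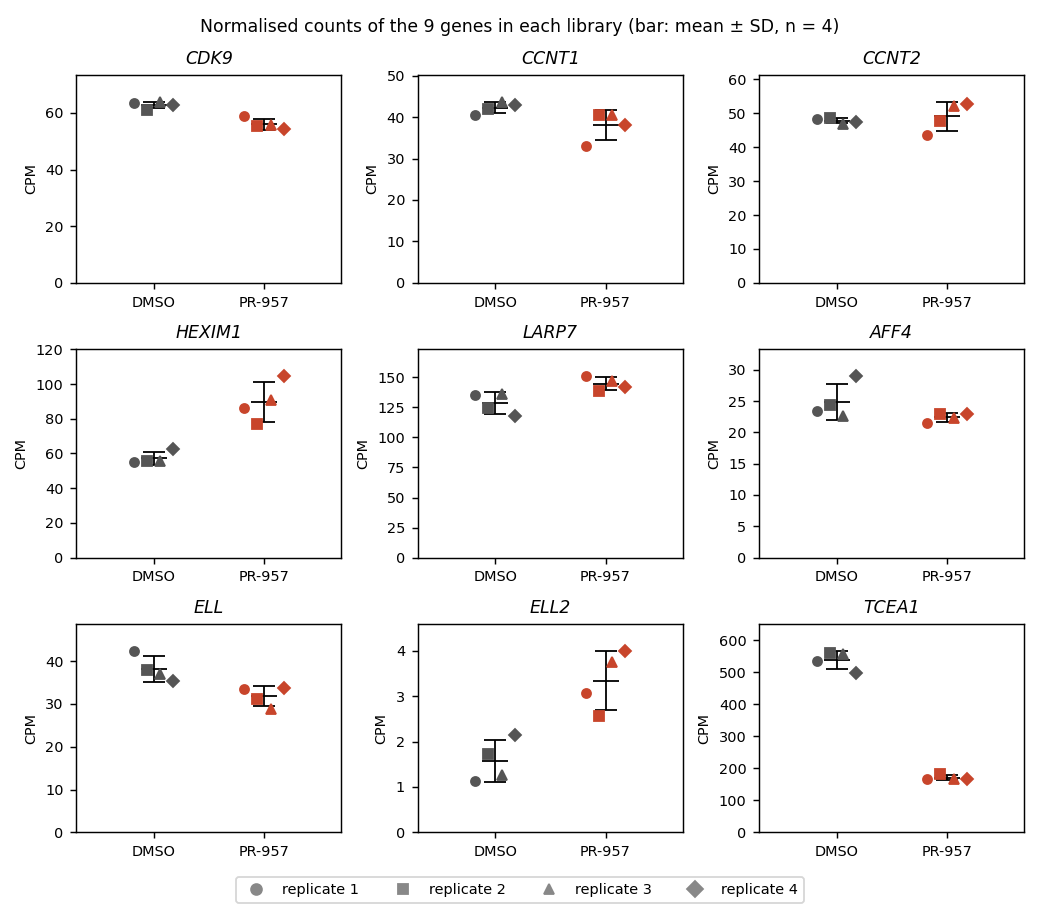
CPM of each of the 9 genes in the 4 DMSO (grey) and 4 PR-957 (red) libraries, with 1 marker shape per replicate number and bars for the mean ± SD (n = 4). TCEA1 separates widely (498 to 562 against 166 to 183 CPM), HEXIM1 and ELL2 are higher under PR-957 without overlap, and CCNT1, CCNT2 and AFF4 overlap.

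Of the super elongation complex, ELL transcripts were lower and the rare ELL2 transcripts higher under PR-957, and the groups overlapped for the scaffold AFF4. AFF4, which holds P-TEFb and ELL proteins together, had 23.4, 24.3, 22.6 and 28.9 CPM in DMSO and 21.4, 22.9, 22.2 and 23.0 CPM in PR-957 libraries. The groups overlapped, and DMSO replicate 4 was the highest library. The difference of AFF4 came to -0.15 on the log2 scale (SE 0.08), and -0.07 without DMSO replicate 4.

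ELL, an elongation factor that was itself found as a KMT2A fusion partner, had 42.3, 37.9, 37.1 and 35.3 CPM in DMSO and 33.6, 31.3, 28.8 and 33.7 CPM in PR-957 libraries. No PR-957 library reached the lowest DMSO library, although replicate 4 of both groups differed by little. ELL differed by -0.26 on the log2 scale (SE 0.07), and in replicates 3 and 4 alone it was -0.22 and not past the threshold. ELL2, a paralog best known from plasma cells, had 18, 31, 21 and 49 counts in DMSO and 55, 49, 82 and 71 counts in PR-957 libraries, or 1.13 to 2.14 CPM and 2.56 to 3.99 CPM. Once scaled, the groups did not overlap, at counts low enough for sampling to matter. ELL2 differed by 1.07 on the log2 scale (SE 0.24), or 2.10-fold, and it ranged from 0.94 to 1.27 when single libraries were left out. Per length, ELL exceeded ELL2 by 24.5 to 55.8 times in DMSO and by 11.4 to 18.2 times in PR-957 libraries.

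TCEA1 showed the largest difference of the 9, for which it was included. It had 534, 562, 556 and 498 CPM in DMSO replicates 1 to 4 and 166, 183, 168 and 167 CPM in the PR-957 replicates. The groups lay far apart relative to the spread within each, a coefficient of variation of 5.33% and 4.81%. TCEA1 differed by -1.65 on the log2 scale (SE 0.06), or 3.14-fold lower, which placed TCEA1 at rank 112 of 13179 genes ordered from the largest decrease. Replicates 1 and 2 alone gave -1.65, and replicates 3 and 4 alone -1.66. It held 55.5 to 58.6% of the summed counts of the 9 genes in DMSO and 27.0 to 30.6% in PR-957 libraries. The share of LARP7 was at most 14.3% in DMSO and at least 22.9% in PR-957 libraries, a value that depends on TCEA1.

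The genes whose pattern was most like TCEA1 over the 8 libraries were SLC7A5, TUBE1 and SARS1. Likeness was the root mean square difference of log2 CPM, centred over the 8 libraries, and was 0.06, 0.06 and 0.07. Centring over both groups keeps the difference between PR-957 and DMSO, for which TCEA1 was included. The 3 genes had log2 fold changes of -1.66, -1.68 and -1.61, near that of TCEA1. Their likeness is therefore a description of this contrast, and whether they vary together within a group was not tested. SLC7A5, an amino acid transporter, went from 622 to 197 CPM. TUBE1, the epsilon tubulin gene, went from 87.5 to 27.2 CPM, and SARS1, the seryl-tRNA synthetase, from 209 to 68.3 CPM. When single libraries were left out, 2 or 3 of these 3 genes remained the nearest. The genes most like CDK9 were RYK, MTIF2 and MYL12A, with differences of 0.02, 0.02 and 0.02 and log2 fold changes of -0.18, -0.16 and -0.18.

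**Figure D3:**
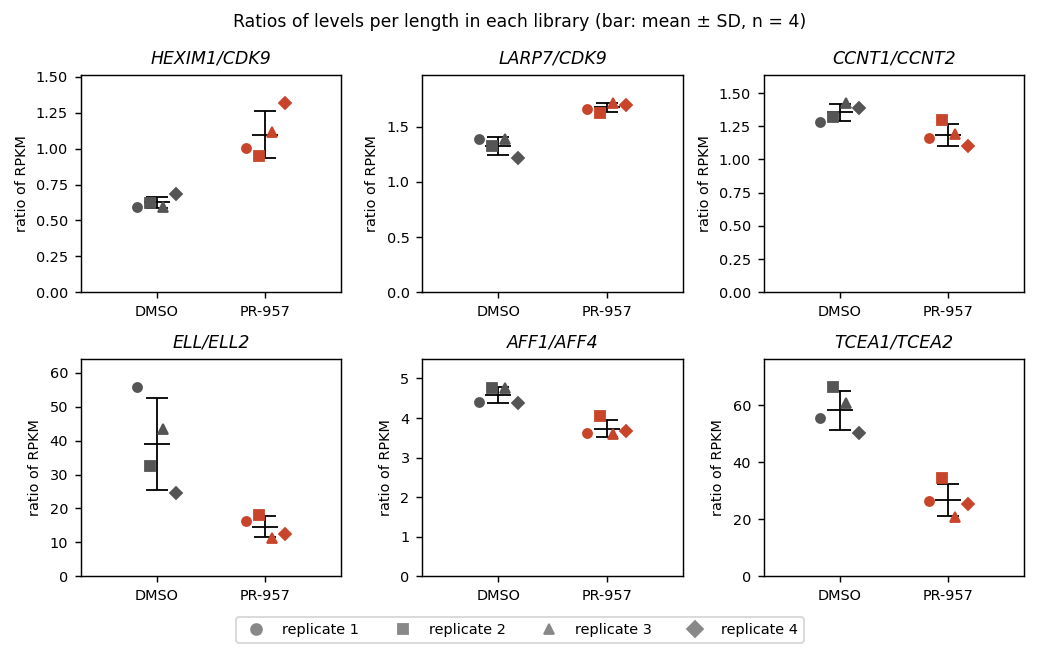
Ratios of RPKM between pairs of elongation genes within each library, for 4 DMSO (grey) and 4 PR-957 (red) libraries, with bars for the mean ± SD (n = 4) and every axis starting at 0. HEXIM1 relative to CDK9 is 0.596 to 0.684 in DMSO and 0.950 to 1.32 under PR-957, while the groups overlap for CCNT1 relative to CCNT2.

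The other elongation genes were taken from lists of complexes, 58 genes in all, of which 57 were tested. At an adjusted p under 0.05 (edgeR), 24 rose and 9 fell, together 57.9%, against 46.6% of all genes (23.1% higher and 23.5% lower). With library totals alone, 29 rose and 7 fell, where 4066 of all genes were called higher and 2353 lower. Their median log2 fold change was 0.11, against 0.00 over all genes. Of the 57 genes, 1 was called with a change of at least 1.5-fold, as were 13.8% of all genes tested. In replicates 3 and 4 only, 14 rose and 7 fell, where 34.6% of all genes tested were called. Without PR-957 replicate 3 there were 20 and 8, with 39.8% of all genes called. Nothing particular to the lists is read from these shares.

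Among 7 genes of the 7SK particle and of P-TEFb release, 2 rose, 0 fell and 5 were not called (edgeR). An unadjusted p under 0.05, in either direction, was found for 4 of the 7. Of all tested genes, 46.6% were called. PPM1G, a phosphatase that frees P-TEFb from 7SK, rose from 216 ± 14.5 to 285 ± 13.1 CPM (log2 fold change 0.40, SE 0.06, adjusted p = 1.40e-05), and JMJD6 rose by 0.34 on the log2 scale. MEPCE, the enzyme that caps 7SK RNA, had 71.3 ± 4.88 and 78.1 ± 5.74 CPM (log2 fold change 0.13, adjusted p = 0.104). Its adjusted p was 0.0469 with the replicate number as a block and 0.00738 with library totals alone. In replicates 1 and 2 alone MEPCE was called (log2 fold change 0.21, adjusted p = 0.0185, edgeR). In replicates 3 and 4 alone it was not (0.05, adjusted p = 0.701). HEXIM2, the paralog of HEXIM1, had 4.48 ± 0.761 and 4.74 ± 0.596 CPM, or 0.08 on the log2 scale (SE 0.17, adjusted p = 0.704). Its 2 groups overlapped, and HEXIM1 exceeded it per length by 8.02 to 12.3 times in DMSO and 11.8 to 20.3 times in PR-957 libraries.

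Among 10 further genes of the super and little elongation complexes, 2 rose, 4 fell and 4 were not called, where 46.6% of all tested genes were called. AFF1, a paralog of AFF4 and a fusion partner of KMT2A in other leukemias, fell from 129 ± 11.8 to 95.1 ± 7.62 CPM (log2 fold change -0.44, SE 0.07, adjusted p = 4.29e-05). Per length AFF1 exceeded AFF4 by 4.58 ± 0.207 times in DMSO and by 3.74 ± 0.220 times in PR-957 libraries. MLLT3, whose counts in this line join the normal gene and its part of the KMT2A::MLLT3 fusion, fell by 0.37 on the log2 scale (SE 0.08, adjusted p = 0.00111). Its paralog MLLT1, also a reader of acylated histones, rose by 0.21 (SE 0.05, adjusted p = 0.00286). ZC3H8 and ICE2 of the little elongation complex, which acts on small nuclear RNA genes, fell by 0.40 and 0.29, while ICE1 of the same complex rose by 0.23. AFF3 was not called, at -0.14 on the log2 scale (SE 0.09, adjusted p = 0.227), nor was ELL3, with 16 to 49 counts per library and a difference of 0.48 (SE 0.30, adjusted p = 0.195). The ELL3 value was 0.20 without DMSO replicate 4, 0.04 in replicates 1 and 2 alone and 1.00 in replicates 3 and 4 alone.

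CDK13, which phosphorylates the polymerase further into genes, fell by 0.17 on the log2 scale (SE 0.05, adjusted p = 0.0158), a call lost without PR-957 replicate 3 (adjusted p = 0.0644), in replicates 3 and 4 alone (0.269) and with library totals alone (0.193). Not called were its paralog CDK12, at 0.04 on that scale (SE 0.07, adjusted p = 0.618), and CCNK, the cyclin of both, at 0.03 (SE 0.06, adjusted p = 0.721). The difference between these kinases was not tested.

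Genes of the pausing factors DSIF and NELF were called in 3 of 6 cases (46.6% over all tested genes), and those 3 rose. NELFCD rose by 0.23 on the log2 scale (SE 0.05, adjusted p = 0.00196), with NELFB and SUPT4H1 at 0.16 and 0.19. In replicates 3 and 4 alone NELFCD was not called (0.16, adjusted p = 0.126). SUPT5H, the DSIF subunit that P-TEFb phosphorylates, had 151 ± 8.24 and 149 ± 13.7 CPM (log2 fold change -0.01, SE 0.06, adjusted p = 0.877), and its sign turned with library totals alone. NELFE is placed on chromosome 6 and on 5 alternate contigs, so its level is uncertain.

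The PAF1 complex, which travels with elongating polymerase, had 4 of 6 genes higher and 0 lower (edgeR), with 4 in all at an unadjusted p under 0.05. Among all tested genes, 23.1% were called higher and 23.5% lower. PAF1 rose from 93.3 ± 2.38 to 118 ± 2.51 CPM (log2 fold change 0.34, SE 0.05, adjusted p = 2.49e-05), and RTF1, WDR61 and CTR9 rose by 0.24, 0.25 and 0.15. CTR9 was only just past the threshold (adjusted p = 0.0458, edgeR), and for WDR61 the groups overlapped. LEO1 and CDC73 had log2 fold changes of -0.10 and -0.09 and were not called. Of the histone chaperone group, IWS1 and the FACT subunits SUPT16H and SSRP1 rose by 0.24, 0.25 and 0.17, and SUPT6H fell by 0.20, so all 4 were called.

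The second TFIIS gene, TCEA2, moved in the same direction as TCEA1 by a smaller step. It fell from 15.1 ± 1.02 to 10.7 ± 1.84 CPM (log2 fold change -0.50, SE 0.11, adjusted p = 0.00146), and in replicates 3 and 4 alone it was not past the threshold (adjusted p = 0.0531). Per length TCEA1 exceeded TCEA2 by 58.2 ± 6.85 times in DMSO and by 26.7 ± 5.64 times in PR-957 libraries, without overlap. TCEA3 had 2 counts in 1 DMSO library and 1 count in 1 PR-957 library, was not tested, and is placed on an alternate contig as well. The 3 elongin genes ELOA, ELOB and ELOC rose by 0.34, 0.35 and 0.17, and the TFIIF genes GTF2F1 and GTF2F2 fell by 0.24 and 0.36.

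Of the 12 polymerase II subunits, 7 rose and 0 fell (edgeR), with 7 and 0 at an unadjusted p under 0.05. Over all tested genes, 23.1% were called higher and 23.5% lower. POLR2L, a small subunit shared by the 3 nuclear polymerases, rose from 27.9 ± 5.11 to 51.6 ± 4.54 CPM (log2 fold change 0.90, SE 0.11, adjusted p = 3.05e-05) and was the gene with at least a 1.5-fold change. POLR2F and POLR2J rose by 0.43 and 0.37. POLR2A, the catalytic subunit, was called higher (log2 fold change 0.48), but it has a second placement on a fix contig, so its level is uncertain. POLR2B, the other large subunit, was not called, at -0.01 on the log2 scale (SE 0.06, adjusted p = 0.891).

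**Figure D4:**
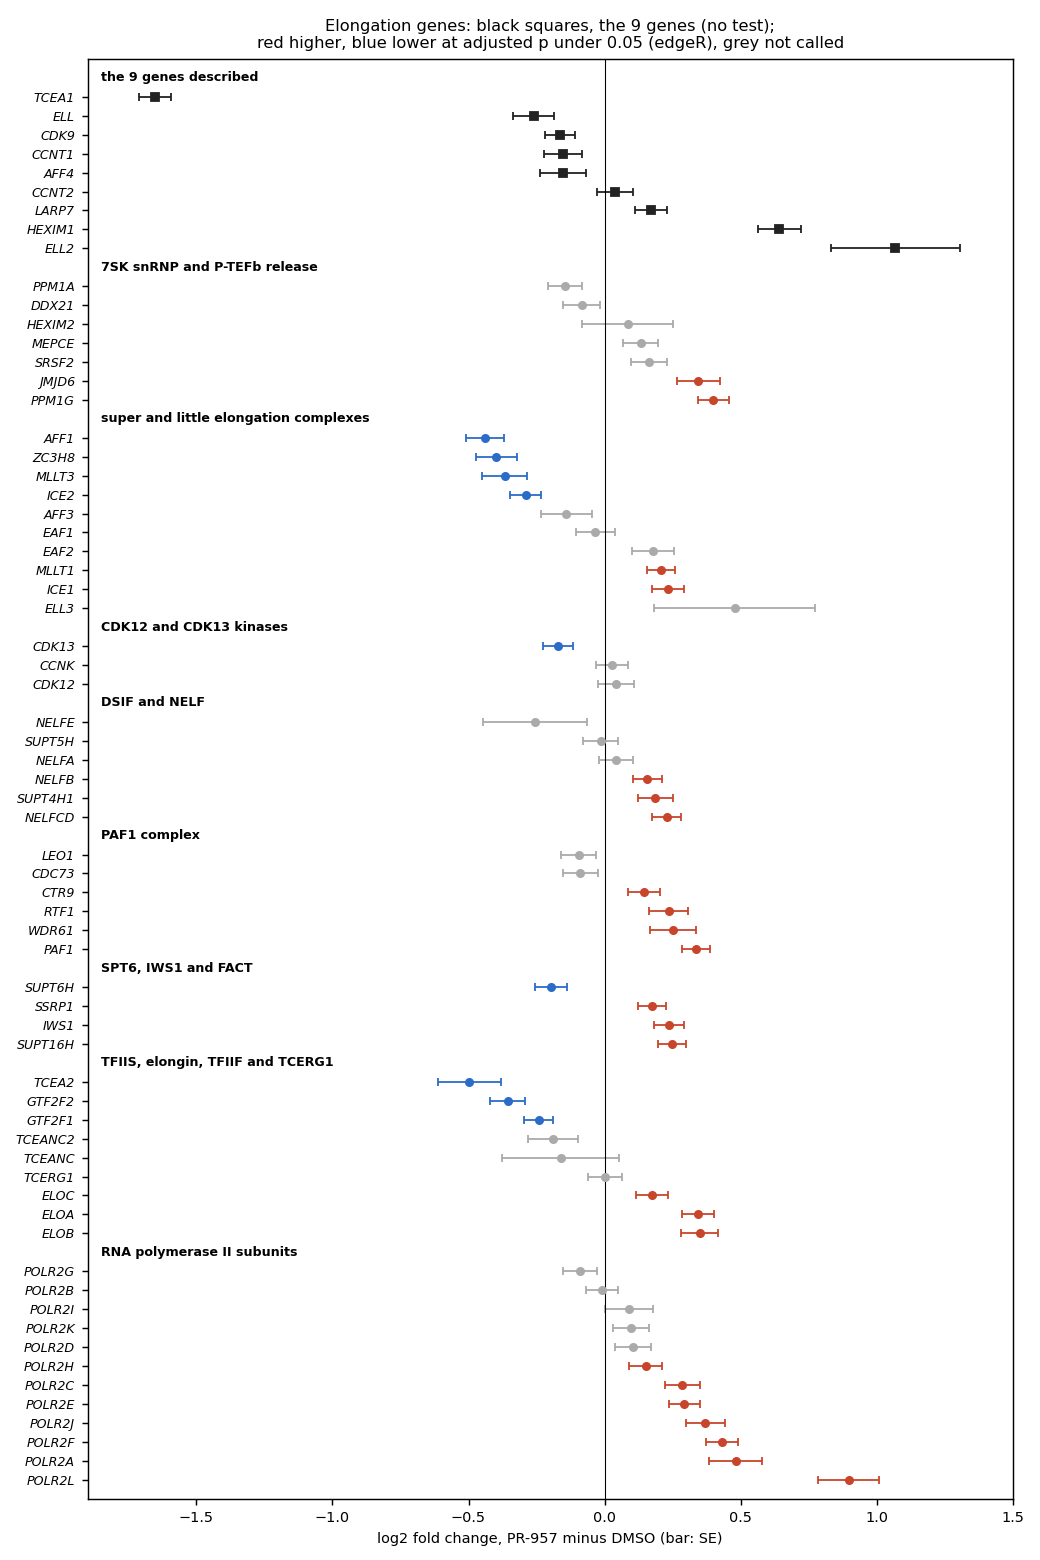
Log2 fold change (PR-957 minus DMSO, bar: SE) of the 9 genes (black squares, no test) and of 57 other elongation genes by complex, red where higher and blue where lower at an adjusted p under 0.05 and grey where not called. TCEA1, included for its decrease, is at -1.65, and ELL2, with 18 to 82 counts per library, is at 1.07. The other genes range from -0.50 to 0.90.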

How the data were processed

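Per the labels, poly(A) RNA libraries were made with the TruSeq RNA kit. The submitters' processing notes list Trimmomatic 0.39, STAR 2.7.10a, featureCounts 2.0.1 and DESeq2, and the build hg38. The authors deposited counts of fragments for each gene, not normalized. Per the file headers, both ends had to map and fragments were counted on the reverse strand against NCBI RefSeq genes. Genes with at least 80% of exon bases antisense to an abundant gene had a median of 0.0127 times its count density over 16 pairs, 12 of them under 0.2. A second deposited table held the authors' own fold changes and p-values and was not used. The counting command named 16 libraries, of which 8 are in the table, and 6 gene entries had no values.

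PR-957 was compared with DMSO by edgeR 4.0.16 (glmQLFit with robust estimation, glmQLFTest, two-sided) in R 4.3.3, with TMM scaling, filterByExpr and Benjamini-Hochberg adjustment over 13179 genes, which held 99.9% of counts. SE was taken from the log2 fold change and its F value (size over root F). RPKM was TMM-scaled CPM over the exon length in the table. Replicates differed by at least 2.68 times sampling noise (chi-square per gene), so all were kept. Deviations from the group means correlated at 0.135 to 0.259 between libraries with the same replicate number and at -0.249 to 0.130 otherwise, a hint of pairing from the data and not from the labels. The printed fit has no replicate term, and the fit with the replicate block is given where it changes a call. Alternatives were DESeq2 1.42.0, limma-voom (limma 3.58.1), other scalings and filters, the replicate block, a 2-level term for replicates 1 and 2 against 3 and 4, either pair alone, and each library left out. The fit was tested on simulated data. Of the listed genes and markers, 2 are not reported here. The members and lists were chosen with earlier results of these data known. Named genes were the members, 13 paralogs and partners, each list's largest called change, every called change of at least 1.5-fold and the 3 nearest genes to TCEA1 and CDK9. Other list genes were named after their values were seen and were not followed singly through the alternatives.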

Additional observations from a re-analysis of the deposited data

Results flagged for a closer look

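In 3 of 52 groups of 4 libraries, 1 library stood apart from the other 3 by Dixon's criterion, and chance gives about 1 in 20. HEXIM1 reached 62.7 CPM in DMSO replicate 4, where the others had 55.2 to 55.6 CPM, and without this library its log2 fold change was 0.69. TCEA1 had 183 CPM in PR-957 replicate 2 against 166 to 168 CPM in the others, and without it the log2 fold change was -1.69. HEXIM2 had 5.61 CPM in DMSO replicate 3 against 4.01 to 4.15 CPM, and without it the difference was 0.21 on the log2 scale (adjusted p = 0.350).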

How the results depend on the processing

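In replicates 3 and 4 only, 21 of the other elongation genes were called, 14 of them higher, and 1 of the 9 genes was past the threshold and lower. There, 34.6% of all tested genes were called. The counts were within 1.5 times under the other settings, with 37 of the other elongation genes called with the replicate block, against 33, while calls over all genes went from 46.6 to 52.5%. The block also took CCNT1 and MEPCE past the threshold and changed no other call of a named gene. When single libraries were left out, 28 to 36 of the other elongation genes were called, and 2 or 3 of the 9 genes were past the threshold and lower. The same fits called 39.8 to 47.2% of all tested genes. The sign turned for CCNT2 in replicates 1 and 2 only (-0.085) and without PR-957 replicate 4 (-0.00085), for CCNK in replicates 3 and 4 only (-0.038), for CDK12 in replicates 1 and 2 only (-0.0030), for HEXIM2 in replicates 3 and 4 only (-0.20), and for SUPT5H with library totals alone (0.063) and in replicates 1 and 2 only (0.031). With single libraries left out, CCNK ranged from -0.011 to 0.051 and SUPT5H from -0.065 to 0.023. The cause was not tested. In DMSO, TPM gave 331 for TCEA1, 71.8 for LARP7, 54.1 for CDK9, 33.9 for HEXIM1, 16.0 for ELL, 13.2 for CCNT1, 9.76 for CCNT2, 5.37 for AFF4 and 0.444 for ELL2, another unit but the same order as RPKM. With library totals alone CDK9 had 24.6 and CCNT2 4.43 RPKM. Depth limits ELL2, HEXIM2 and ELL3, which had at most 101 counts in any library.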
